A study of Rattus norvegicus with 4 samples.

Results

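The genes described here encode subunits of the mitochondrial respiratory chain (complexes I to IV) and of ATP synthase (complex V). They were taken by gene symbol: the families Ndufa, Ndufb, Ndufc, Ndufs and Ndufv of complex I, Sdha to Sdhd of complex II, Uqcr of complex III, the numbered and lettered Cox families of complex IV, and Atp5 of complex V. By symbol these families also hold Atp5if1, Cox7a2l and Cox6c-ps1, which are not subunits but stay in the counts of members and complexes. Ndufa4 and Ndufa4l2 are counted with complex I by their names, but were grouped with the non-subunits where a setting below leaves these out. The rule found 77 of the 14217 genes that had a probe set with a single symbol, namely 35 of complex I, 4 of complex II, 7 of complex III, 15 of complex IV and 16 of complex V. Of these, 70 passed a filter on dim signal (a mean intensity over the arrays above 62.75, the median of all probe sets), with 34, 4, 7, 9 and 16 in the same order of complexes. The rule itself uses symbols only, and measured values entered through the filter and through the brightest probe set of a gene. It was set with earlier results of these data known.

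Gene expression was measured on 4 Affymetrix arrays of hippocampal CA3 RNA from Sprague-Dawley rats, 24 h after an injection into the hippocampus. One array each came from rats given kainic acid (KA, which activates kainate-type glutamate receptors and is toxic to CA3 neurons), KA with the peptide NAP (a fragment of activity-dependent neuroprotective protein), NAP alone, or PBS as the vehicle. The labels do not say whether an array holds 1 animal or a pool, and every value below comes from single arrays, so none has a replicate error and no test between groups was possible. Over all probe sets the median intensity was 58 to 65 on the 4 arrays, and the mean after trimming 2% at each end was equal on all of them. Checked against markers of the labelled tissue, the neuronal gene Snap25 was bright on every array (6904 to 9045), the vesicular glutamate transporter Slc17a7 stood at 506 to 828, and the kainate receptor gene Grik4, enriched in CA3, was measured at 191 to 407. For beta-actin, the 3′ probe set over the 5′ one gave a ratio between 7.92 (NAP array) and 15.5 (KA+NAP array), without a common order of the KA and other arrays.

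The respiratory chain passes electrons from NADH (complex I) and succinate (complex II) through complex III to complex IV, which reduces oxygen, and the proton gradient that complexes I, III and IV build drives ATP synthesis by complex V. Neurons depend on this route for most of their ATP, which pays for ion pumping after synaptic activity, and excitotoxic calcium entry is known to load mitochondria. Except for some subunits encoded by mitochondrial DNA, all subunits are nuclear-encoded and imported.

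Most of these genes were slightly lower on the KA array than on the PBS array, in every complex. Of the 70, 55 lay below 0 in KA minus PBS on the log2(intensity + 10) scale, where 47.2% of all 9489 genes past the filter did, and the median log2 difference was −0.16 (a ratio of 0.896), against 0.02 over all genes. Complex IV had the lowest median at −0.20 and all 9 of its members below 0, complex III stood at −0.18 (4 of 7), complex I at −0.18 (25 of 34), complex V at −0.14 (14 of 16) and complex II at −0.14 (3 of 4). This order was not stable. Complex I was lower than complex IV after quantile normalisation (−0.149 against −0.132) and among members with a mean intensity of 1000 or more (−0.225 against −0.179). The differences were small: a single member was at least 1.5-fold lower (9.56% of all genes were), none was at least 1.5-fold higher (12.4% of all genes were), and none reached 2-fold in either direction (2.39% lower and 4.91% higher among all genes). In bulk tissue, fewer cells that express a gene and less RNA per cell cannot be told apart.

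The same direction stood in the rats that also had NAP. In KA+NAP minus NAP, which shares no array with KA minus PBS, 53 of 70 members lay below 0 (47.3% of all genes did) with a median of −0.09, against 0.03 over all genes. Over genes with a mean intensity of 1000 or more, a level that 58 of the 70 members reached, the median was −0.07. The medians were −0.21 for complex III (5 of 7 below 0), −0.18 for complex IV (8 of 9), −0.16 for complex II (3 of 4), −0.13 for complex V (14 of 16) and −0.06 for complex I (23 of 34). Below 0 in both KA differences were 46 of 70 members, against 32.9% of all genes, and above 0 in both were 8, against 37.9% of all genes. For 44 of 70 members, both KA arrays lay below both arrays without KA, which held for 28.7% of all genes, and the opposite order held for 6 members, against 32.3% of all genes. By complex, both KA arrays were the lower ones for 17 of 34 members of complex I, 3 of 4 of complex II, 3 of 7 of complex III, 8 of 9 of complex IV and 13 of 16 of complex V.

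**Figure D1:**
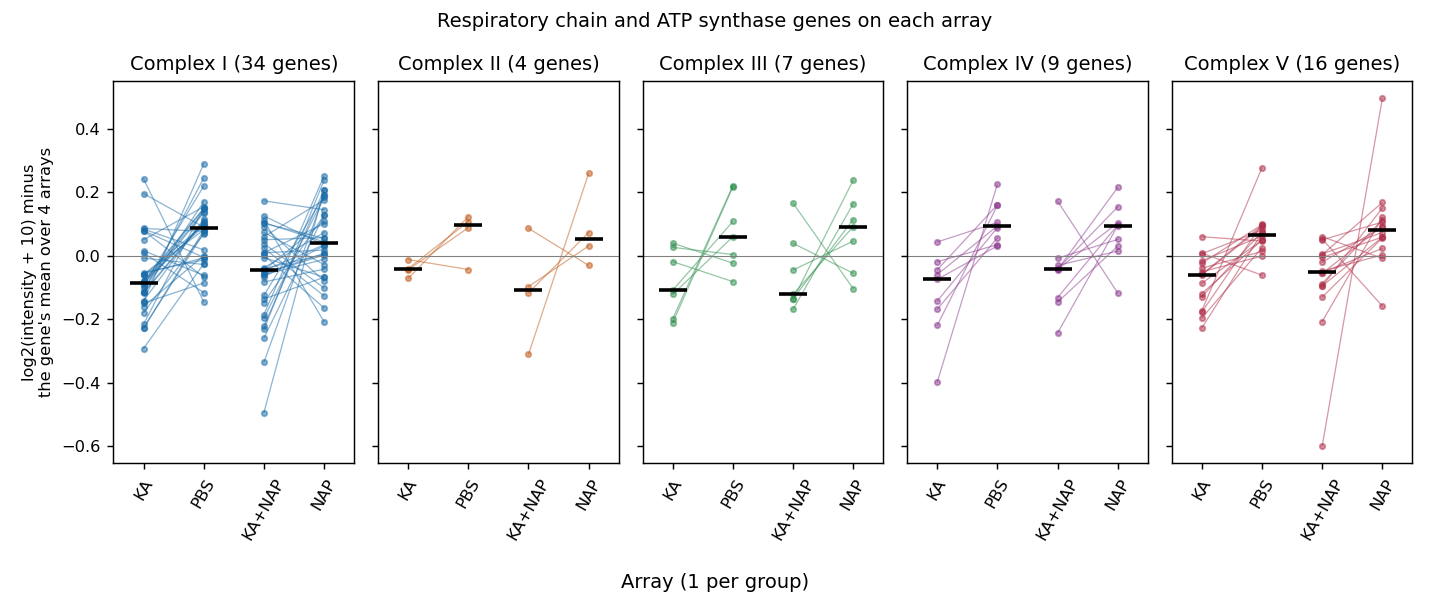
Each point is a subunit gene on an array, as log2(intensity + 10) minus that gene's mean over the 4 arrays (vertical axis), with lines joining KA to PBS and KA+NAP to NAP and black bars at the median of each array. The medians of the KA and KA+NAP arrays sit below those of the PBS and NAP arrays in all 5 complexes.

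The subunit genes differed little between arrays with and without NAP. In KA+NAP minus KA, 32 of 70 lay below 0 (45.4% of all genes did), with a median of 0.01 against 0.03 over all genes. The complex medians ran between −0.06 for complex II and 0.07 for complex IV. In NAP minus PBS, 39 of 70 lay below 0 (45.2% of all genes did), the median was −0.02 against 0.02, and no member reached 1.5-fold in either direction (1.69% of all genes were that much lower and 3.96% that much higher, with 0.242% and 1.05% at 2-fold). These last counts depend on the scaling: with each array shifted to a common median over genes, 58.6% of members and 50.8% of all genes lay below 0 in KA+NAP minus KA, and 65.7% of members and 52.2% of all genes in NAP minus PBS. After quantile normalisation the NAP minus PBS shares were 44.3% of members and 47.9% of all genes. KA+NAP minus KA shares the KA array with KA minus PBS, and NAP minus PBS shares the PBS array with it, so their values for a gene are not independent of each other.

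Summing the intensities of the members of a complex, which gives the bright probe sets most of the weight, showed the same. The summed intensity of complex I was 59196 with KA, against 65864 with PBS (89.9%), and 59609 with KA+NAP, against 64279 with NAP (92.7%). Complex IV stood at 28391 on the KA array, against 33108 with PBS (85.8%), and at 29092 with KA+NAP, against 32746 with NAP (88.8%). The KA sums of complexes II, III and V were 91.9%, 88.4% and 90.4% of their PBS sums, and their KA+NAP sums were 85.9%, 90.5% and 91.5% of their NAP sums. KA+NAP sums were between 94.9% (complex II) and 102% (complex IV) of the KA sums, and NAP sums between 97.6% (complex I) and 102% (complex II) of the PBS sums. As deposited, all 10 ratios of a KA array to its array without KA lay below every ratio between arrays of like KA treatment. No such sums were taken over other genes, and bright genes outside the complexes leaned the same way. Other genes at an intensity of 4000 or more had median log2 differences of −0.19 in KA minus PBS and −0.12 in KA+NAP minus NAP. Their medians were 0.05 in KA+NAP minus KA and −0.01 in NAP minus PBS. After quantile normalisation they overlapped: the KA ratios ran between 88.1% and 98.2%, with complex V at 98.2% and complex IV at 92.3% in KA over PBS, and the ratios of like KA treatment between 96.2% and 103%.

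**Figure D2:**
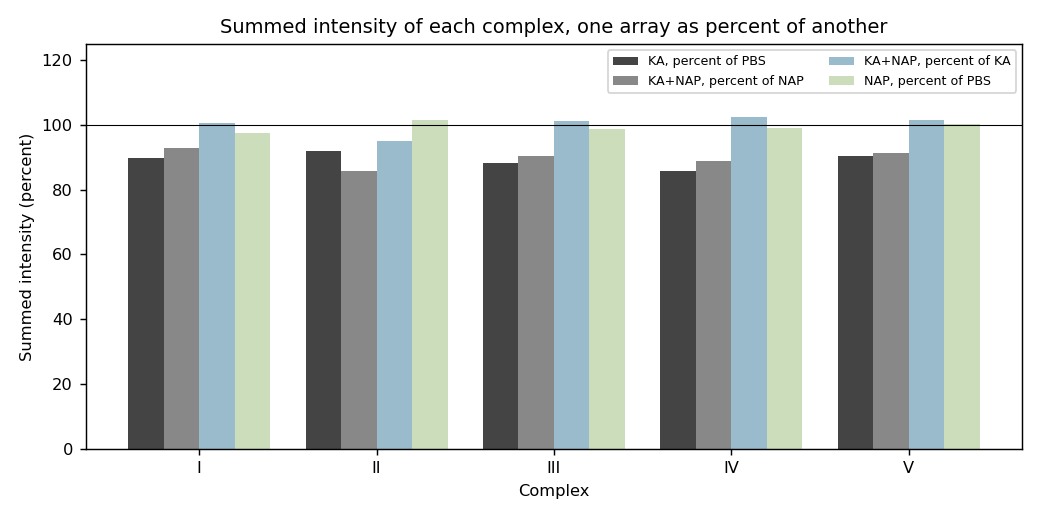
Bars give the summed intensity of the members of each complex on an array as a percent of that on another array (vertical axis, from 0). The dark bars (KA over PBS, KA+NAP over NAP) lie between 85.8% and 92.7%, and the light bars (KA+NAP over KA, NAP over PBS) between 94.9% and 102%, as deposited; after quantile normalisation the ranges were 88.1% to 98.2% and 96.2% to 103%.

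The lower values were partly shared with other bright genes. Of the 70 members, 58 had a mean intensity of 1000 or more, a level reached by 20.3% of all genes past the filter, and bright genes as a whole leaned down with KA: the median over the 1922 genes at that level was −0.04 in KA minus PBS and −0.07 in KA+NAP minus NAP. Among them, 53.7% lay below 0 in KA minus PBS, 56.7% in KA+NAP minus NAP, 43% in both, and 38.9% had both KA arrays below both others. Between 1000 and 2000, 12 of 22 members had both KA arrays lower, against 31.8% of other genes. Between 2000 and 4000 this held for 17 of 22 members, against 42.2% of other genes, and the median of KA minus PBS was −0.18 for members and −0.04 for the others. At 4000 or more, 11 of 14 members and 57.8% of other genes had both KA arrays lower, but the medians of KA minus PBS were −0.15 for members and −0.19 for the others, so that by size the brightest subunit genes lay no lower than other genes of their intensity. In KA+NAP minus NAP the medians were −0.09 for members and 0.05 for the others under 1000, and −0.05 and −0.03 between 1000 and 2000. They were −0.18 and −0.09 between 2000 and 4000, and −0.10 and −0.12 at 4000 or more. Quantile normalisation, which gives all arrays the same distribution of values, left 68.6% of members and 49.3% of all genes below 0 in KA minus PBS, a members' median of −0.11, and 44.3% of members, against 30.1% of all genes, with both KA arrays lower, and brought the KA minus PBS median of complex V to −0.01 and that of complex III to −0.06.

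**Figure D3:**
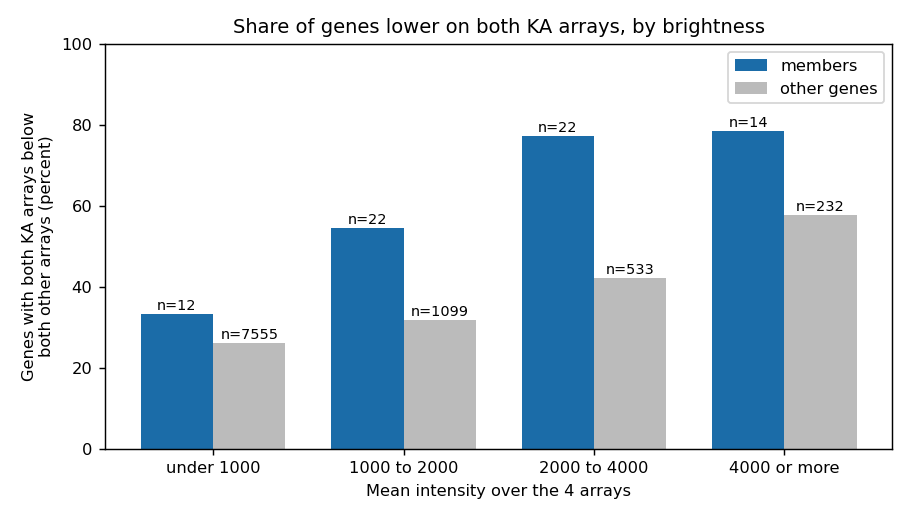
Bars give the percent of genes whose intensity was lower on both KA arrays than on both arrays without KA (vertical axis), for subunit genes (blue) and for the other genes past the filter (grey), in 4 ranges of mean intensity with the number of genes above each bar. The shares of subunit genes are above those of other genes in all 4 ranges, by least under an intensity of 1000 (33.3% against 26.0%).

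The 3 members at least 1.5-fold apart in any comparison were Cox8a, Atp5if1 and Ndufb8. Cox8a, the widely expressed form of the smallest complex IV subunit, had an intensity of 2823 with KA, against 4359 with PBS, and 3613 with KA+NAP, against 4326 with NAP. Its log2 differences were −0.62 in KA minus PBS and −0.26 in KA+NAP minus NAP, so both KA arrays were below both others and the KA array was the lowest. Atp5if1, the inhibitory factor that binds F1 and restrains ATP hydrolysis when the membrane potential fails, had 733 on the KA array, against 1006 with PBS, and 543 on the KA+NAP array, against 1172 with NAP. It differed by −0.45 and −1.10, and was the 1 member past 2-fold (2.41% of all genes were at least 2-fold lower in KA+NAP minus NAP, and 5.66% at least 2-fold higher). Its 2 further probe sets were dim (means of 56.2 and 20) and gave −0.10 and 0.23 in KA minus PBS and 0.33 and −0.38 in KA+NAP minus NAP, so the value rests on 1 probe set. Ndufb8, an accessory subunit in the membrane arm of complex I, was dim throughout, with 103 on the KA array, against 95 with PBS, and 60 on the KA+NAP array, against 104 with NAP. Its differences were 0.11 and −0.70, and −0.69 in KA+NAP minus KA, so the KA+NAP array alone stood low. With Atp5if1 it made up the 2 members at least 1.5-fold lower in KA+NAP minus NAP (9.38% of all genes), none being that much higher (13.8%), and it was the 1 member at least 1.5-fold lower in KA+NAP minus KA (2.87%), none being that much higher there (6.53%); no member reached 2-fold in that comparison (0.601% of all genes were lower and 1.52% higher by that much).

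**Figure D4:**
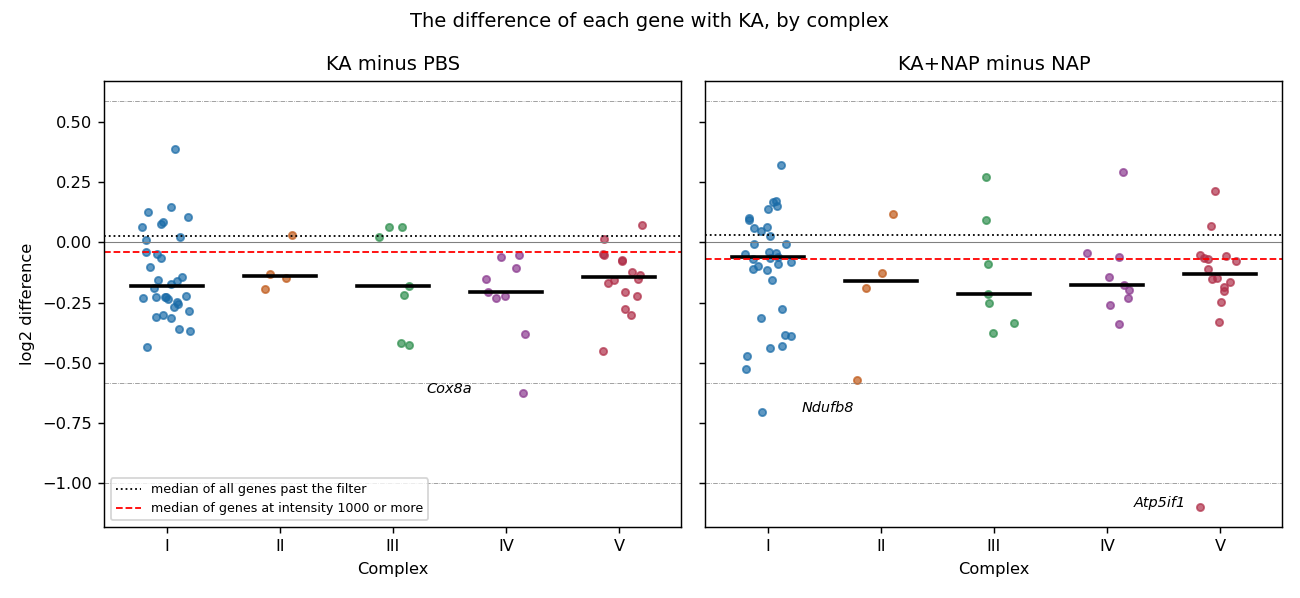
Each point is a subunit gene, placed by complex (horizontal axis), with its log2 difference (vertical axis) in KA minus PBS on the left and KA+NAP minus NAP on the right; black bars are complex medians, the dotted line the median of all genes, the dashed red line that of genes at an intensity of 1000 or more, and thin lines mark 1.5-fold and 2-fold. Most points lie between 0 and −0.5, with Cox8a, Ndufb8 and Atp5if1 past 1.5-fold.

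The promoters of these 3 genes, and of 2 among the further members that hold 2 kinds of motif, are shown because subunit genes of all complexes leaned in one direction and nuclear respiratory genes are known to share binding motifs of NRF1, ETS-family factors such as GABP, YY1, CREB and ERR. Sequences are from RefSeq on rat build GRCr8, from 250 bases before to 50 after the annotated start, 5′ to 3′ on the gene's strand, with capitals where a motif was found on either strand.
Cox8a, chr1:213833574-213833873, minus strand: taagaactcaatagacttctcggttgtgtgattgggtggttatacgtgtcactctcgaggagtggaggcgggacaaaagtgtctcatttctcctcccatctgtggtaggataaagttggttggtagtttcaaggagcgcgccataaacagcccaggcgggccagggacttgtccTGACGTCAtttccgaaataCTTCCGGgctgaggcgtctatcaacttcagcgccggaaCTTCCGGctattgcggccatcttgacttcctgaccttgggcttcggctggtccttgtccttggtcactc
Atp5if1, chr5:150026628-150026927, minus strand: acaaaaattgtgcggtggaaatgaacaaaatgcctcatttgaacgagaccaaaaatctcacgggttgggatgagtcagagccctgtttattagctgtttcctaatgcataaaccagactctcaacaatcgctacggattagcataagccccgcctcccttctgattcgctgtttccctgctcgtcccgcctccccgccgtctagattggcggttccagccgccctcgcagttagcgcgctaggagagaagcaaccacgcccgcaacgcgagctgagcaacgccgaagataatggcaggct
Ndufb8, chr1:253362887-253363186, minus strand: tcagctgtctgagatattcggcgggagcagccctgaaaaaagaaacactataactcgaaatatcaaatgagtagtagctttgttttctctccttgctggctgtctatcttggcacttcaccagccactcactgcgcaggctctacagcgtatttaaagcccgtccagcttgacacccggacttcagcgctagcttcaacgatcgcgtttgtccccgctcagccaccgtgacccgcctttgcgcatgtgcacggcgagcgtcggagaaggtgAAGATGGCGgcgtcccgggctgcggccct
Atp5me, chr14:1464610-1464909, plus strand: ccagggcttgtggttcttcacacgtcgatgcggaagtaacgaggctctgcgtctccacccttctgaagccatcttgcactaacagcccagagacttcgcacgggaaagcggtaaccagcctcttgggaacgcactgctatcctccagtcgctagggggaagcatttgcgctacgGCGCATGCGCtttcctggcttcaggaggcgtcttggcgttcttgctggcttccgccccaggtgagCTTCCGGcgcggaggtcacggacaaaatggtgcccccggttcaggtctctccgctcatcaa
Sdhd, chr8:59850592-59850891, minus strand: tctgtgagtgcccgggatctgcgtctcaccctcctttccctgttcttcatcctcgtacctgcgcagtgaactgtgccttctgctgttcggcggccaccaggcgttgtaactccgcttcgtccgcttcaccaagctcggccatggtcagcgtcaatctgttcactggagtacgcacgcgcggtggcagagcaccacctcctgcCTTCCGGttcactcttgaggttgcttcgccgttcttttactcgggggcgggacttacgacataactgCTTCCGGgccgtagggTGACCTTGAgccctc
The letters searched were GCGCATGCG for NRF1, CCGGAAG for ETS factors, AAGATGGCG for YY1, TGACGTCA for CREB and TCAAGGTCA for ERR, each on both strands. The ETS and YY1 letters can share their AAG. Cox8a holds 2 ETS matches and 1 CREB match, Ndufb8 a YY1 match after its start, Atp5me NRF1 letters and an ETS match, Sdhd 2 ETS matches and an ERR match, and Atp5if1 none of the 5.

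A promoter was listed for 64 of the 70 members past the filter. Of these 64, 19 (29.7%) held the ETS letters, against 9.22% of the first-listed promoters of all 27457 genes in the table, and 10 (15.6%) held the YY1 letters, against 1.93%. NRF1 letters stood in 5 (7.81%, against 1.66%), CREB letters in 3 (4.69%, against 1.91%) and ERR letters in 2 (3.12%, against 0.412%). The 27457 genes were not limited to those on the array or past the filter. Whether other expressed or bright genes hold these letters as often was not tested. ETS letters occurred in members of every complex, in 7 of 32 promoters of complex I, 2 of 4 of complex II, 3 of 6 of complex III, 2 of 7 of complex IV and 5 of 15 of complex V. The KA minus PBS median was −0.14 for the 19 members with ETS letters and −0.17 for the 45 without, and −0.15 for the 10 with YY1 letters and −0.17 for the 54 without. In KA+NAP minus NAP the medians were −0.11 with and −0.08 without ETS letters, and −0.06 with and −0.11 without YY1 letters. No test was made between members with and without a motif.

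Complex I takes electrons from NADH through a peripheral arm of conserved core subunits, which are surrounded by accessory subunits. In KA minus PBS the 27 accessory members had a median of −0.23 with 21 below 0, and the 6 core members (Ndufv1, Ndufv2, Ndufs1, Ndufs3, Ndufs7 and Ndufs8) had a median of −0.04 with 3 below 0. In KA+NAP minus NAP the medians were alike, at −0.06 for both groups. Ndufb4 and Ndufb11, accessory subunits of the membrane arm, had the lowest average of the 2 KA differences. Ndufb4 had 2904 with KA, against 3928 with PBS, and 2542 with KA+NAP, against 3668 with NAP. Ndufb11 had 1638 with KA, against 2102 with PBS, and 1479 with KA+NAP, against 1939 with NAP. In both genes the KA arrays were well below the others, with differences of −0.43 and −0.53 for Ndufb4 and −0.36 and −0.39 for Ndufb11.

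At the other end of complex I, Ndufa5, an accessory subunit of the peripheral arm, was the member furthest above 0. It had 359 with KA, against 272 with PBS, and 327 with KA+NAP, against 260 with NAP, differences of 0.39 and 0.32 with no overlap of the arrays. Ndufa7 stood at 1366 with KA, against 1305 with PBS, and at 1310 with KA+NAP, against 1179 with NAP, but its dimmer probe set gave −0.41 and −0.51 where the brighter gave 0.07 and 0.15, so its direction is not settled. Ndufb9, whose probe set was the brightest of the complex, had 5846 with KA, against 5809 with PBS, and 5514 with KA+NAP, against 4912 with NAP. The core subunit Ndufs1, which carries iron-sulphur clusters, differed by 0.15 in KA minus PBS and −0.38 in KA+NAP minus NAP, with 1994 and 1645 on the KA and KA+NAP arrays, against 1801 and 2148 on the PBS and NAP arrays. Across all complexes the 2 KA differences had opposite signs for 16 of 70 members, of which 9 were lower with KA and higher with KA+NAP, and none was 1.5-fold apart in both. Of all genes past the filter, 32.9% lay below 0 in both KA differences and 37.9% above 0 in both. The remaining genes had opposite signs or a value of 0, so opposite signs were not particular to the members. Ndufa4, first counted with complex I and now assigned to complex IV, is kept by its name in the counts, medians and sums of complex I and of all members. The accessory and core groups, and the setting without non-subunits, leave it out. Ndufa4 had 2636 with KA, against 3083 with PBS, and 2430 with KA+NAP, against 3372 with NAP (−0.23 and −0.47). Its paralogue Ndufa4l2, known as a hypoxia-induced gene, was listed between 12 and 25 on the 4 arrays and did not pass the filter.

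Complex II, succinate dehydrogenase, belongs to both the citric acid cycle and the respiratory chain. Sdha, its flavoprotein, had 2428 with KA, against 2781 with PBS, and 2055 with KA+NAP, against 3057 with NAP, differences of −0.20 and −0.57, the second just short of 1.5-fold. Sdhb, the iron-sulphur subunit that works beside it, had 1812 with KA, against 1773 with PBS, and 1941 with KA+NAP, against 1789 with NAP (0.03 and 0.12), so the catalytic pair did not share a direction. The membrane anchors were lower on both KA arrays. Sdhc had 2198 with KA, against 2437 with PBS, and 2113 with KA+NAP, against 2310 with NAP. Sdhd had 1910 with KA, against 2095 with PBS, and 1816 with KA+NAP, against 2073 with NAP, and its second probe set, at 390, 479, 313 and 471 in that order of arrays, also placed both KA arrays below both others.

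In complex III, the core proteins lay slightly above 0 and the small subunits below 0 in KA minus PBS, a division that KA+NAP minus NAP did not show. Uqcrc1, a core protein, had 2420 with KA, against 2316 with PBS, and 2419 with KA+NAP, against 2265 with NAP (0.06 and 0.09). Uqcrc2, the other core protein, had 4183 with KA, against 4118 with PBS, and 3774 with KA+NAP, against 4378 with NAP (0.02 and −0.21), and its dimmer probe set gave 0.35 and −0.63. The core proteins thus differed in direction in the rats with NAP. Uqcr11, a small subunit, had 3080 with KA, against 4147 with PBS, and 3171 with KA+NAP, against 3998 with NAP (−0.43 and −0.33). Uqcr10, another small subunit, had 2227 with KA, against 2982 with PBS, and 2327 with KA+NAP, against 2769 with NAP (−0.42 and −0.25). The 4 small subunits were all below 0 in KA minus PBS, with a median of −0.32, and 3 of 4 were below 0 in KA+NAP minus NAP. Uqcrh, the hinge subunit, followed with 5050 with KA, against 5872 with PBS, and 5279 with KA+NAP, against 5625 with NAP. The exception with NAP was Uqcrq at 1648 with KA, against 1871 with PBS, and 2014 with KA+NAP, against 1669 with NAP. The Rieske iron-sulphur protein Uqcrfs1 differed by 0.06 in KA minus PBS and by −0.38 in KA+NAP minus NAP, where the NAP array (1750) stood above the other 3 (1346 to 1463).

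Complex IV, cytochrome c oxidase, was the complex with the most uniform direction. In KA minus PBS, the member furthest below 0 after Cox8a was Cox7b, with 3988 with KA, against 5187 with PBS, and 4510 with KA+NAP, against 4991 with NAP (−0.38 and −0.15). Cox7c was the member furthest below 0 in KA+NAP minus NAP, with 3406 with KA, against 3555 with PBS, and 2790 with KA+NAP, against 3531 with NAP (−0.06 and −0.34). Cox5b, a zinc-binding subunit, was nearly level, with 5603 with KA, against 5816 with PBS, and 5557 with KA+NAP, against 5736 with NAP (both −0.05). Cox5a gave the 1 value above 0 in KA+NAP minus NAP (0.29, 347 with KA+NAP, against 282 with NAP), after −0.23 in KA minus PBS (277 with KA, against 327 with PBS). A much brighter probe set annotated to Cox5a and a second locus, which the rule does not admit, gave −0.23 and −0.09. Some subunits have a general form and a form known from heart and muscle or from testis; their probe sets are given side by side, with no comparison of level between them. Cox6a1 had 2367 with KA, against 2548 with PBS, and 2480 with KA+NAP, against 2584 with NAP, and the muscle form Cox6a2 was listed at 17, 10, 96 and 35 on the same arrays. Cox6b1 had 2886 with KA, against 3374 with PBS, and 3152 with KA+NAP, against 3612 with NAP, and Cox6b2, Cox7a1, Cox7b2 and Cox8b stayed at or under 63 on every array. Cox7a2l, which helps complexes III and IV assemble into supercomplexes, had 2691 with KA, against 3103 with PBS, and 2507 with KA+NAP, against 2834 with NAP. The 7 members that failed the filter had no value above 96, and no direction was read from them.

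ATP synthase joins a catalytic F1 head to a membrane part, which holds a rotor of c subunits, through a central and a peripheral stalk. The catalytic beta subunit Atp5f1b had 6421 with KA, against 7135 with PBS, and 6456 with KA+NAP, against 6807 with NAP (−0.15 and −0.08). Of the 5 F1 members, 4 lay below 0 in each KA difference, the exception being the central stalk subunit Atp5f1d, with 1440 with KA, against 1426 with PBS, and 1433 with KA+NAP, against 1236 with NAP (0.01 and 0.21). The 4 peripheral stalk members had medians of −0.07 and −0.10, and among them Atp5po, which caps the F1 head, stood at 3956 with KA, against 4094 with PBS, and at 4272 with KA+NAP, against 4074 with NAP. The small membrane subunits had medians of −0.20 and −0.16 over 5 genes. Among these Atp5me had 523 with KA, against 604 with PBS, and 535 with KA+NAP, against 637 with NAP (−0.20 and −0.25). Atp5mc3, 1 of the genes for the c subunit, had 5146 with KA, against 5730 with PBS, and 5016 with KA+NAP, against 5582 with NAP (−0.15 in both). The probe sets of the other c subunit genes, Atp5mc1 and Atp5mc2, are annotated to 2 loci each and were left out by the rule. In all, 7 probe sets with several symbols name a subunit, and 6 of the 7 lay below 0 in each KA difference.

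Other genes that serve the respiratory chain differed in direction from list to list. Cox4i1, the regulatory subunit of complex IV whose symbol the rule does not match, had 2080 with KA, against 2301 with PBS, and 2038 with KA+NAP, against 2185 with NAP (−0.15 and −0.10), and the alternative form Cox4i2 was listed at 18 or lower on every array. Cyc1, a cytochrome of complex III, had 2093 with KA, against 2380 with PBS, and 2352 with KA+NAP, against 2289 with NAP (−0.18 and 0.04). Of 36 assembly factors past the filter, 20 lay below 0 in KA minus PBS and 16 in KA+NAP minus NAP, with medians of −0.02 and 0.04. Citric acid cycle and pyruvate dehydrogenase genes had medians of −0.03 and −0.14 over 14 genes. Genes for regulators of mitochondrial biogenesis had medians of 0.24 and 0.20, with 5 and 4 of 16 below 0, although the coactivator Ppargc1a had 338 with KA, against 409 with PBS, and 271 with KA+NAP, against 380 with NAP (−0.27 and −0.47). Tfam, which packages and transcribes mitochondrial DNA, had 896 with KA, against 790 with PBS, and 812 with KA+NAP, against 669 with NAP (0.18 and 0.28).

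Genes for other large complexes lay above 0. Mitochondrial ribosomal proteins had medians of 0.10 and 0.15 in KA minus PBS and KA+NAP minus NAP (24 and 20 of 73 below 0), cytosolic ribosomal proteins 0.17 and 0.36 (10 and 0 of 43), and proteasome subunits 0.25 and 0.35 (7 and 3 of 36). The direction of the subunit genes was thus opposite in median to that of these 3 lists, which were added after values had been seen and were not tested against them. Most pan-neuronal, excitatory neuron and astrocyte markers were lower on the same arrays. Of 12 pan-neuronal markers, 10 lay below 0 in each KA difference, with medians of −0.40 and −0.27, and their intensities summed to 36780 (KA), 36547 (KA+NAP), 44407 (NAP) and 47477 (PBS). Excitatory neuron and CA3 markers, among them Slc17a7 and Grik4, lay lower still, with 9 of 10 below 0 in each, medians of −0.62 and −0.78, and sums of 6470 (KA), 5845 (KA+NAP), 9102 (NAP) and 10138 (PBS). Of 6 markers of GABAergic interneurons, 4 lay below 0 in KA minus PBS (median −0.09) and 2 in KA+NAP minus NAP (median 0.13), with sums of 5161 (KA), 5110 (KA+NAP), 5590 (NAP) and 5572 (PBS). Of 9 astrocyte markers 7 lay below 0 in each, with medians of −0.39 and −0.40 and sums of 31434 (KA), 33637 (KA+NAP), 38311 (NAP) and 37849 (PBS). Microglial markers summed to 2588 (KA), 4580 (KA+NAP), 3318 (NAP) and 3238 (PBS), oligodendrocyte markers to between 24344 and 26631, and the 3 erythrocyte genes on the array to 221 (KA), 1604 (KA+NAP), 1495 (NAP) and 35 (PBS), so these sums did not order the arrays by KA. Nor did the endothelial, meningeal and choroid plexus sums. Within the microglial list, P2ry12 and Tmem119 were lower on both KA arrays than on both others, and Cd14, Cd68 and Ptprc were higher. Pericyte and mural markers summed to 1689 (KA), 2828 (KA+NAP), 1052 (NAP) and 856 (PBS), higher on both KA arrays. Of their 8 genes past the filter, 4 lay below 0 in each KA difference. No marker of these lists was at 0 on any array. Their part in the lower subunit values was not tested.

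**Figure D5:**
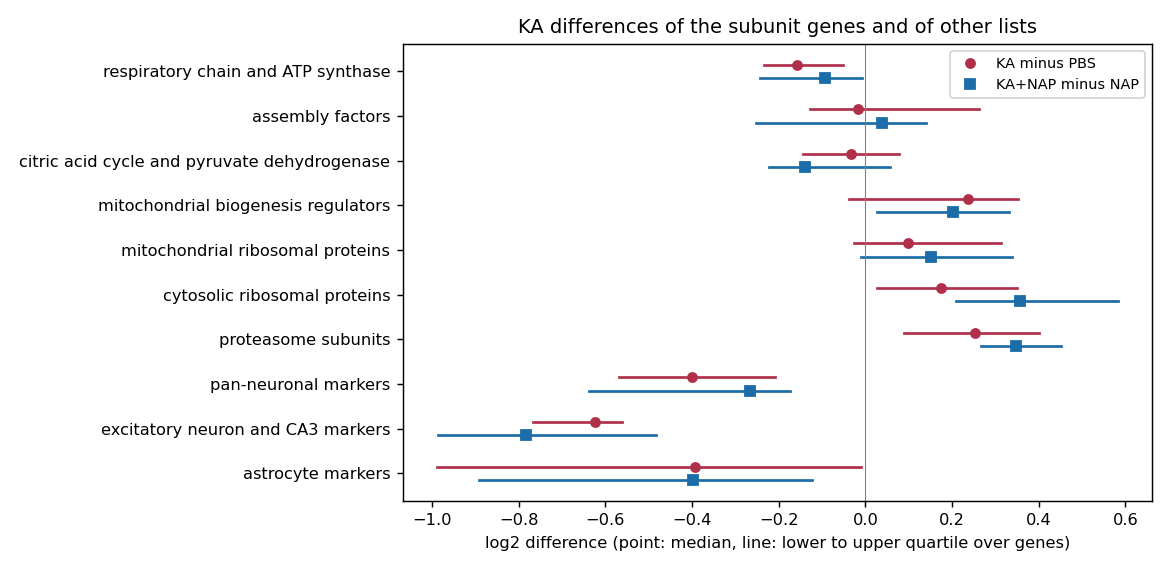
Points give the median log2 difference (horizontal axis) over the genes of each list past the filter and lines run from the lower to the upper quartile over genes, for KA minus PBS (red circles) and KA+NAP minus NAP (blue squares). The subunit genes sit at −0.16 and −0.09, between the pan-neuronal, excitatory neuron and astrocyte marker lists on the left and the ribosomal and proteasome lists on the right.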

How the data were processed

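RNA of 4 hippocampal CA3 samples, 1 per group, was measured on Affymetrix arrays. Per the labels' protocols, total RNA was amplified in 2 cycles to biotin-labelled cRNA, which favours 3′ ends. Per the submitters' processing notes, MAS5 gave the deposited intensity of each of 31099 probe sets; its version, detection calls and array dates are not stated in the labels or files. The intensities were whole linear numbers with equal trimmed means, and no further scaling was applied. Symbols came from the platform annotation (20832 probe sets with 1 symbol, 436 with several, 9831 unlisted), updated by Entrez identifier to GRCr8. A gene took its brightest probe set, and differences are of log2(intensity + 10), which understates those of dim genes. With 1 array per group there is no test, p-value or standard error; 1.5-fold and 2-fold are rules of size. The number of arrays limits the precision. Named genes were the brightest member and the 2 highest and 2 lowest average KA effects of each complex, members past 1.5-fold, paralogous forms and 6 further genes; Cycs among these had no singly named probe set. Genes given outside this rule (Ndufs1, Uqcrfs1, Uqcrc2, Cox7c, Bnip3, and the microglial P2ry12, Tmem119, Cd14, Cd68 and Ptprc) were chosen after their values were seen. The NRF1 letters are its palindrome less the last base, set after the whole palindrome had been searched. Members and lists were chosen with earlier results of these data known. Calculations used Python 3.11.15, pandas 2.3.3 and numpy 2.4.6, and the code was tested on simulated data.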

Additional observations from a re-analysis of the deposited data

How the results depend on the processing

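Of 808 values recomputed under 12 alternative settings, 782 stayed within 0.1 (log2) or, for counts, within 1.5 times of the reported value, 26 moved further, and none at 0.1 or more in size turned direction. The limit of 0.1 is wider than some medians, such as −0.09 for all members and −0.06 for complex I in KA+NAP minus NAP. Values that small could reach 0 and still count as unmoved. Leaving out _x_at and _s_at probe sets, or keeping the platform's symbols, left the members' medians in both KA differences as reported. The members' median stayed below 0 in both KA differences under all settings, between −0.22 and −0.11 in KA minus PBS and between −0.15 and −0.06 in KA+NAP minus NAP. Quantile normalisation brought the KA minus PBS median to −0.063 for complex III and −0.0064 for complex V, the summed intensity with KA to 92.3% of PBS for complex IV and 98.2% for complex V, and the count past 1.5-fold in KA minus PBS to 0. In KA+NAP minus NAP, the count past 1.5-fold was 1 with a pseudocount of 50, with the filter at the 75th percentile, with probe sets averaged, and without members that are not subunits; it was 4 after median centring and 0 with members at an intensity of 1000 or more. The count past 2-fold there was 2 with no filter and 0 with probe sets averaged, with members at 1000 or more, or without non-subunits, since it is Atp5if1 alone; averaging its 3 probe sets gave −0.38. In KA+NAP minus KA, the count past 1.5-fold was 0 with a pseudocount of 50, with the filter at the 75th percentile or with members at 1000 or more, and 2 with no filter, where 1 member was past 2-fold. With no filter 1 member was past both limits in NAP minus PBS. The added genes there are dim. The centring on bright genes was chosen after seeing the data and moved no value this far. No paired analysis was possible because each group has 1 array, for which reason no array could be left out either. Without detection calls, no member's signal was set against its background.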

Other observations

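Probe sets for 2 subunits of complex IV encoded by mitochondrial DNA, COX1 and COX2, are on the array. COX1 had 10896 with KA, against 11133 with PBS, and 11524 with KA+NAP, against 13498 with NAP. COX2 had 10668 with KA, against 13048 with PBS, and 12656 with KA+NAP, against 13104 with NAP. Their log2 differences were −0.03 and −0.29 in KA minus PBS and −0.23 and −0.05 in KA+NAP minus NAP, so both genes lay below 0 in both KA differences, as did most nuclear-encoded members; the KA+NAP value of COX1 was above its PBS value.

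Among the assembly, carrier, citric acid cycle, biogenesis and HIF target lists, 2 genes past the filter were past 2-fold in a comparison. Nubpl, an iron-sulphur protein needed to assemble complex I, had 413 with KA, against 140 with PBS, and 266 with KA+NAP, against 186 with NAP, differences of past 2-fold and of 0.49 on the log2 scale. Slc2a1, the glucose transporter of the blood-brain barrier and a target of the hypoxia-inducible factor HIF, had 996 with KA, against 441 with PBS, and 923 with KA+NAP, against 587 with NAP (1.16 and 0.64). The HIF target list was split: 6 of 10 genes lay below 0 in KA minus PBS (median −0.16) and 5 of 10 in KA+NAP minus NAP (median −0.06). Among those below 0, Bnip3, a mitochondrial outer membrane protein of mitophagy, had 1757 with KA, against 2426 with PBS, and 1375 with KA+NAP, against 2299 with NAP.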
